A study of Homo sapiens with 2 samples.

Results

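The 49 genes described here read at least 100 intensity units on both arrays and were higher by at least 0.5 on the log2 scale (1.41-fold) in RKO cells with a hairpin against BCLAF1-L than in RKO cells with a luciferase hairpin. They were chosen by that difference itself, on the brightest probe set of each gene among probe sets with 1 gene symbol, so their differences describe the selection and are given without a test. Of 19777 genes on the array, 11569 passed the intensity floor on both arrays, and 57 of these, or 0.493%, reached the threshold. MMP1, SPRY2, AKAP12, PDP1, FZD4, EPB41L4B, MIR100HG and ZNF148 also reached it and were left out by name, which leaves the 49. Below the opposite threshold of -0.5 lay 45 genes, or 0.389%.

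RKO is an established, poorly differentiated human colon cancer line. The sh-BCLAF1-L cells had been infected with a retrovirus carrying a hairpin against BCLAF1-L, the sh-Luci cells with one carrying a hairpin against firefly luciferase, and puromycin then selected the infected cells of both cultures. Each group was 1 culture on 1 array and 1 hairpin, so the spread between cultures is unknown, no p-value can be given, and a difference between hairpins, cultures and arrays cannot be told apart. BCLAF1 itself read 945 in sh-BCLAF1-L cells and 2505 in sh-Luci cells on its brightest probe set, 2.65-fold lower with its hairpin, and its 5 dimmer probe sets were lower too, with log2 differences between -1.57 and -0.51. In such bulk RNA, fewer cells with a transcript and less of it per cell cannot be told apart.

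Among all genes above the floor the median difference was 0.02, with quartiles of -0.08 and 0.11. Probe sets of the same gene, both above the floor, differed from each other with a pooled SD of 0.14 on the log2 scale over 4969 genes, which covers neither cultures nor arrays. The 18 bacterial biotin spike-in probe sets were all higher on the sh-BCLAF1-L array, by a median of 0.20 and at most 0.33. Their part in the 49 differences was not tested. Of 9 colon epithelial markers, 3 passed the floor (EPCAM, KRT18 and LGALS4), whereas KRT20 read 14.6 in sh-BCLAF1-L cells and 15.6 in sh-Luci cells, and CDH1 35.6 in sh-BCLAF1-L cells and 24.6 in sh-Luci cells. Summed over each list, markers read 1629 in sh-BCLAF1-L cells and 1954 in sh-Luci cells for colon epithelium. Most of that gap lay in KRT18, which read 674 in sh-BCLAF1-L cells and 979 in sh-Luci cells. EPCAM and LGALS4 differed by -0.02 and -0.37. Of the colon markers below the floor, CDH1, CDX2, VIL1, KRT8 and CDH17 were higher and KRT20 was lower. Fibroblast markers (2 of 8 above the floor) summed to 946 in sh-BCLAF1-L cells and 872 in sh-Luci cells, blood markers (2 of 5) to 449 in sh-BCLAF1-L cells and 431 in sh-Luci cells, and endothelial markers (3 of 6) to 564 in sh-BCLAF1-L cells and 539 in sh-Luci cells. None of the 49 genes is in these lists, and the part of the marker levels in the results was not tested.

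BCLAF1 is a nuclear protein rich in arginine and serine that associates with messenger RNA processing and export complexes and with transcriptional regulators, and it was first described as a partner of BCL2 family proteins. Notch receptors, semaphorins and AKT kinases, which recur below, carry signals between and within cells. The 49 genes covered secreted and surface proteins, Notch signalling, kinase and inositol phosphate signalling, and DNA repair. They also covered chromatin and transcription factors, mitochondrial and metabolic enzymes, and non-coding transcripts. RefSeq classes 43 of them as protein-coding, 5 as long non-coding RNAs and 1, TMEM191A, as a transcribed pseudogene.

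The brightest probe sets of the 49 genes read between 147 and 2669 in sh-BCLAF1-L cells, with a median of 296, and between 101 and 1572 in sh-Luci cells, with a median of 196. Their differences ran from 0.51 to 1.07, with a median of 0.58, so most lay close to the threshold. Only ACYP1 was at least 2-fold higher, and 23 genes were at least 1.5-fold higher. Control intensities under 200 were found for 25 of the 49 (51.0%), against 26.2% of all genes above the floor. Intensities of at least 1000 on both arrays were found for 3 (6.12%), against 18.7%. The rule used the intensities of both arrays, so these shares are not independent of the selection and are no separate trait of the genes. They are properties of probe sets and not of transcript numbers.

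**Figure D1:**
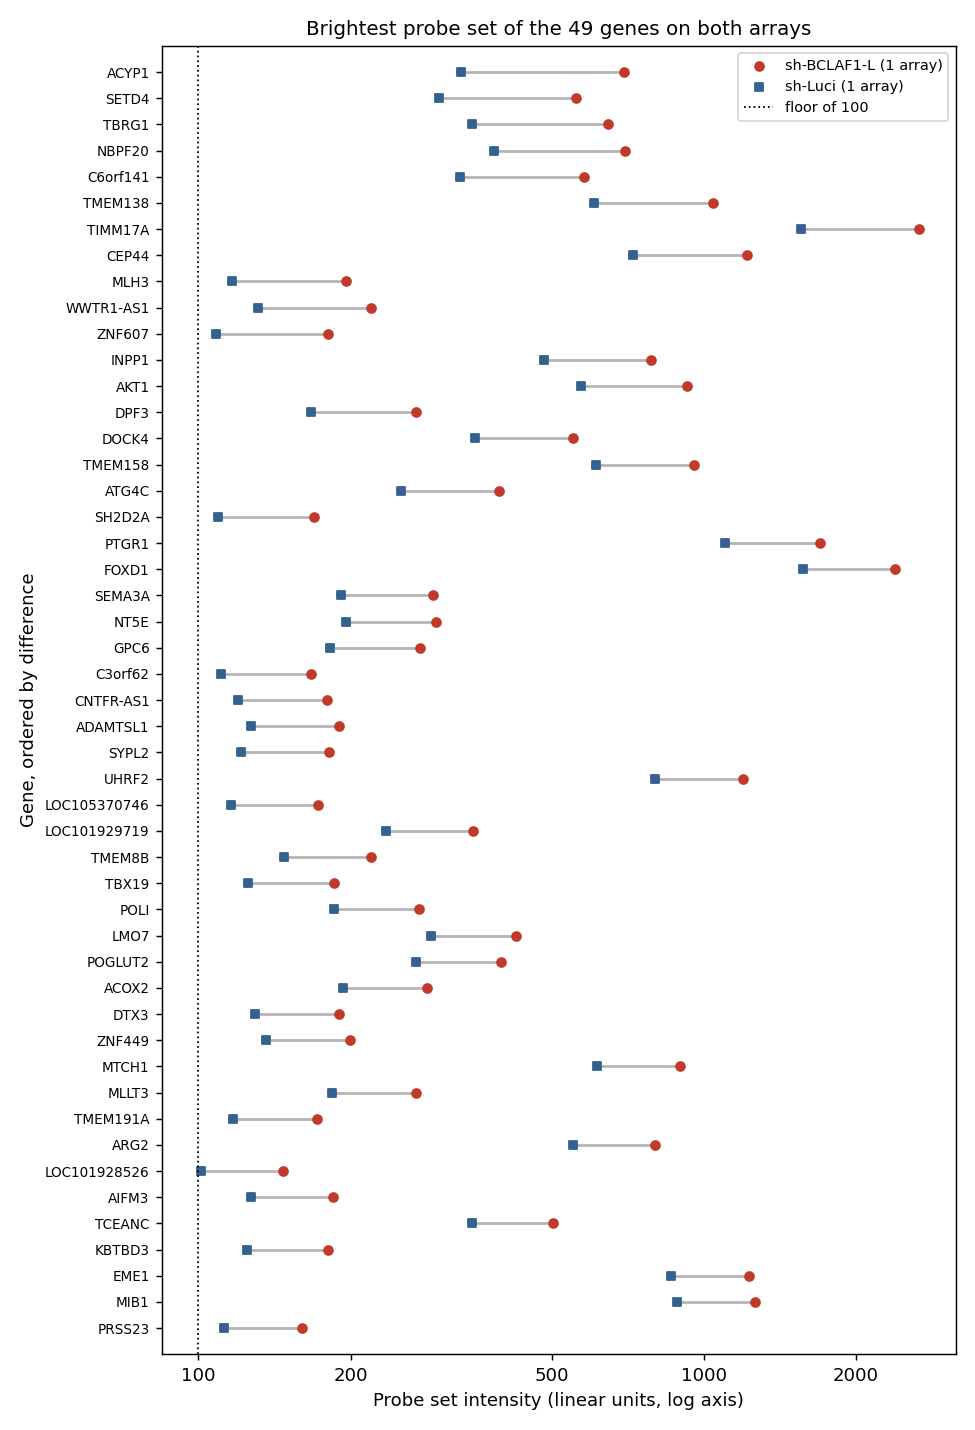
Intensity of the brightest probe set of each of the 49 genes on the sh-BCLAF1-L array (circles) and the sh-Luci array (squares), on a log axis, ordered from the largest difference (ACYP1, 1.07 on the log2 scale) to the smallest (PRSS23, 0.51). A grey line joins the 2 arrays, each point is 1 array, there are no error bars, and the dotted line marks the floor of 100.

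**Figure D2:**
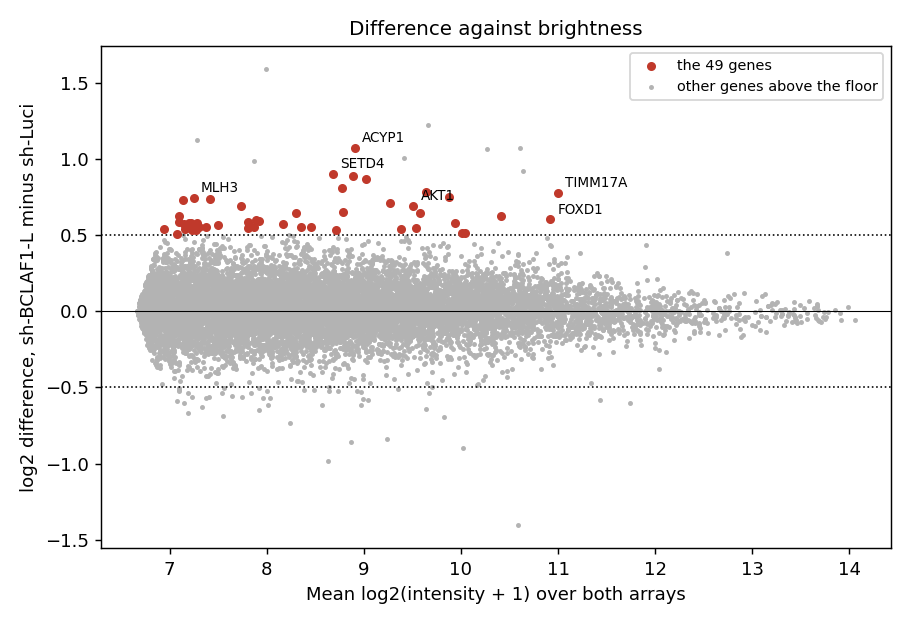
Difference of log2(intensity + 1), sh-BCLAF1-L minus sh-Luci, against the mean over both arrays for the 11569 genes above the floor, with the 49 genes in red and dotted lines at 0.5 and -0.5. Most of the 49 genes lie just above the upper line, and TIMM17A and FOXD1 are the brightest of them.

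ACYP1 encodes an acylphosphatase, a small enzyme that hydrolyses carboxyl phosphate bonds. It read 696 in sh-BCLAF1-L cells and 331 in sh-Luci cells, a difference of 1.07 or 2.10-fold, on its only probe set. Its relative ACYP2 lay below the floor, at 75.5 in sh-BCLAF1-L cells and 92.7 in sh-Luci cells. MLH3, a MutL homologue of mismatch repair and meiotic crossover formation, read 196 in sh-BCLAF1-L cells and 117 in sh-Luci cells, a difference of 0.74. The other probe sets of MLH3 differed by 0.07 and 0.28.

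ACYP1 and MLH3 are direct neighbours in the RefSeq gene order, on the same strand, and are the only pair of the 49 genes with no other protein-coding or long non-coding gene between them. The next closest pair, ADAMTSL1 and MLLT3, is separated by 16 genes. EIF2B2, the gene on the far side of MLH3, differed by 0.24 (970 in sh-BCLAF1-L cells and 822 in sh-Luci cells). ZC2HC1C, on the far side of ACYP1, lay below the floor and differed by -0.06, and NEK9 differed by 0.04. Of the genes adjacent to one of the 49 and not among them, 32 passed the floor, with a median difference of 0.02 and a range from -0.24 to 0.35.

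The sequences before the RefSeq starts of these neighbours are shown because they are the only adjacent genes in the set. Both lie on the minus strand of GRCh38.p14, the MLH3 stretch at chr14:75051468-75051717 and the ACYP1 stretch at chr14:75069491-75069640. The ACYP1 stretch overlaps the annotated gene ZC2HC1C. They are written 5′ to 3′ along the gene, and capitals mark the GC box letters GGGCGG on either strand.
ACYP1: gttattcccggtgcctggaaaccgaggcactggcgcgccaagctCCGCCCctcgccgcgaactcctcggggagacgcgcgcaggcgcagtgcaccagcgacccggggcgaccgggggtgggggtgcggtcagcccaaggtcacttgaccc
MLH3: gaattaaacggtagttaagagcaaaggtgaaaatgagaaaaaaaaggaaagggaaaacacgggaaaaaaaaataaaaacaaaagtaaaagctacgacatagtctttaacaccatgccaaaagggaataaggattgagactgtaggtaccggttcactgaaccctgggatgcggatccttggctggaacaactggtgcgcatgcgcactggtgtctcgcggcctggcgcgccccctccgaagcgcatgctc
The ACYP1 stretch of 150 bases is 72.7% G and C and holds 1 GC box, read on the opposite strand. RefSeq gives ACYP1 a second start within the gene, and the 250 bases before it, at chr14:75064025-75064274, are 59.2% G and C and hold 1 GC box, 1 CCAAT box and 1 ETS motif. The MLH3 stretch of 250 bases is 47.2% G and C and holds none of the 7 motifs searched.

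Several of the genes encode secreted or surface proteins. SEMA3A, a secreted semaphorin that repels axons and acts through neuropilin and plexin receptors, read 291 in sh-BCLAF1-L cells and 192 in sh-Luci cells, a difference of 0.60. Its other probe sets, both dimmer than the floor, differed by 0.57 and 0.30, so all 3 were higher. NT5E, the ectonucleotidase CD73 that forms extracellular adenosine, read 296 in sh-BCLAF1-L cells and 196 in sh-Luci cells. The second-brightest probe set of NT5E differed by 1.40 (260 in sh-BCLAF1-L cells and 97.4 in sh-Luci cells), and the remaining pair by 0.33 and -0.07. GPC6, a heparan sulfate proteoglycan anchored to the membrane, read 274 in sh-BCLAF1-L cells and 182 in sh-Luci cells, and its dim second probe set differed by 0.28.

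ADAMTSL1, a secreted matrix protein without protease activity, read 190 in sh-BCLAF1-L cells and 127 in sh-Luci cells. Of its 5 other probe sets, all under the floor on an array, 4 were higher, by up to 0.62. The secreted serine protease PRSS23 lay closest to the threshold, at 160 in sh-BCLAF1-L cells and 112 in sh-Luci cells, and its other probe sets differed by 0.24, -0.02 and -0.09. TMEM158, a membrane protein first found as a transcript induced by RAS, read 958 in sh-BCLAF1-L cells and 612 in sh-Luci cells on its only probe set. TMEM8B, a membrane protein, read 219 in sh-BCLAF1-L cells and 148 in sh-Luci cells, and its other probe set, also above the floor, differed by 0.02.

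Partners of these proteins were read from groups assembled after the 49 genes were known. The SEMA3A co-receptor NRP1 stayed outside the set because its brightest probe set read 171 in sh-BCLAF1-L cells and 94.8 in sh-Luci cells, under the floor in the control. Its difference was 0.85, its second probe set differed by 1.18 (192 in sh-BCLAF1-L cells and 84.0 in sh-Luci cells), and the dimmer pair by 0.40 and 0.22. SEMA3C also lay under the floor in the control and differed by 0.44 and 0.65 on its probe sets. NRP2 differed by -0.04 and the plexins PLXNA1, PLXNA2, PLXNA3, PLXNB2 and PLXND1 by -0.03, -0.11, -0.03, -0.26 and 0.12. Among glypicans, GPC3 differed by 0.48 on its brightest and -0.01 on its other, dimmer probe set, and GPC1 and GPC4 by -0.01 and -0.04, and among adenosine genes other than NT5E the widest difference was 0.15, for ADA.

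MIB1, POGLUT2 and DTX3 were grouped with the signalling of Notch, a receptor cleaved after it binds a ligand on a neighbouring cell. MIB1, the ubiquitin ligase that lets cells internalise Notch ligands, read 1260 in sh-BCLAF1-L cells and 884 in sh-Luci cells, a difference of 0.51. Its 3 other probe sets all passed the floor and differed by 0.36, 0.28 and 0.38. POGLUT2, a glucosyltransferase of EGF repeats, read 396 in sh-BCLAF1-L cells and 270 in sh-Luci cells on its only probe set. DTX3, of the Deltex ubiquitin ligase family, read 190 in sh-BCLAF1-L cells and 129 in sh-Luci cells, whereas its 4 other probe sets, each under the floor on at least 1 array, were lower, by -0.15, -0.24, -0.16 and -0.17.

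Of 28 genes in the Notch group, which was assembled around these members, 27 passed the floor, and their median was 0.05, against 0.02 for all genes above the floor. The receptors NOTCH1, NOTCH2 and NOTCH3 differed by 0.05, 0.14 and 0.00. The transcriptional partner RBPJ differed by 0.23. HES1, a classical Notch target, read 144 in sh-BCLAF1-L cells and 194 in sh-Luci cells, a difference of -0.42, with -0.28 and 0.62 on its dimmer probe sets, and HEY1 differed by -0.17.

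AKT1, INPP1 and DOCK4 belong to intracellular signalling. AKT1, the growth factor kinase that acts downstream of phosphoinositide 3-kinase, read 925 in sh-BCLAF1-L cells and 572 in sh-Luci cells on its only probe set, a difference of 0.69 or 1.61-fold. AKT2 differed by -0.12, PDPK1, the kinase that activates AKT, by 0.15, and the AKT phosphatase PHLPP1 by 0.42 (364 in sh-BCLAF1-L cells and 271 in sh-Luci cells). The other PHLPP1 probe set was very dim, at 2.96 in sh-BCLAF1-L cells and 5.34 in sh-Luci cells. INPP1, which removes the 1-phosphate of inositol polyphosphates, read 787 in sh-BCLAF1-L cells and 482 in sh-Luci cells on its only probe set. The inositol monophosphatases IMPA1 and IMPA2, which act after it, differed by 0.23 and 0.28.

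DOCK4, an exchange factor for the GTPase RAC1, read 552 in sh-BCLAF1-L cells and 352 in sh-Luci cells. Its dimmer probe sets differed by 0.41, 0.47 and -0.11. The related DOCK5 differed by 0.32 and RAC1 itself by -0.12. SH2D2A, an adaptor protein known from T cells, read 169 in sh-BCLAF1-L cells and 109 in sh-Luci cells. TBRG1, a nuclear protein that binds ARF and MDM2 and restrains growth, read 646 in sh-BCLAF1-L cells and 348 in sh-Luci cells, a difference of 0.89. Its 5 other probe sets spread between -0.25 and 0.31.

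Besides MLH3, the DNA repair genes EME1 and POLI were in the set. EME1, the partner of the nuclease MUS81, read 1230 in sh-BCLAF1-L cells and 861 in sh-Luci cells, while its other probe set differed by -0.10. POLI, a DNA polymerase that copies across damaged bases, read 273 in sh-BCLAF1-L cells and 186 in sh-Luci cells, and its dim second probe set differed by 0.09. Among their partners, PMS1 differed by 0.33 on its brightest probe set and between -0.42 and 0.15 on its other probe sets. MUS81 differed by 0.10, and the polymerases POLH and POLK by 0.11 and -0.11.

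Chromatin and transcription factors made up a further part of the set. FOXD1, a forkhead transcription factor, read 2389 in sh-BCLAF1-L cells and 1572 in sh-Luci cells, and UHRF2, a ubiquitin ligase that reads methylated DNA and histones, read 1195 in sh-BCLAF1-L cells and 801 in sh-Luci cells, each on a single probe set. The related UHRF1 differed by -0.11 and DNMT1, the maintenance DNA methyltransferase, by -0.15. DPF3, an accessory subunit of the BAF chromatin remodelling complex, read 269 in sh-BCLAF1-L cells and 167 in sh-Luci cells, with 0.41, 0.25 and -0.11 on dim probe sets. Its paralogue DPF1 differed by -0.37 and, on a dim probe set, by 0.16, and DPF2 differed by 0.09.

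MLLT3, a reader of acylated histones that recruits elongation factors, read 270 in sh-BCLAF1-L cells and 184 in sh-Luci cells, and its other probe sets differed by -0.02 and 0.45. SETD4, a SET domain methyltransferase, was second in size, at 559 in sh-BCLAF1-L cells and 299 in sh-Luci cells (0.90), on a probe set of the _x_at class, whose probes can match several transcripts. The second SETD4 probe set read 113 in sh-BCLAF1-L cells and 115 in sh-Luci cells. TBX19, the T-box factor of pituitary corticotrophs, read 186 in sh-BCLAF1-L cells and 126 in sh-Luci cells. The zinc finger gene ZNF607 read 180 in sh-BCLAF1-L cells and 108 in sh-Luci cells, and ZNF449 read 199.7 in sh-BCLAF1-L cells and 136 in sh-Luci cells, differences of 0.73 and 0.55. The second probe set of ZNF449 was dim and differed by 0.59. TCEANC, a relative of the elongation factor TFIIS, read 502 in sh-BCLAF1-L cells and 347 in sh-Luci cells on an _x_at probe set, a difference of 0.53, and by -0.13 and 0.11 elsewhere.

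TIMM17A, MTCH1 and AIFM3 encode mitochondrial proteins. TIMM17A, a channel subunit of the inner membrane import machinery, read 2669 in sh-BCLAF1-L cells and 1557 in sh-Luci cells on its brightest probe set, a difference of 0.78. A second bright TIMM17A probe set read 1735 in sh-BCLAF1-L cells and 1610 in sh-Luci cells, a difference of 0.11. MTCH1, an outer membrane protein of the carrier family, read 899 in sh-BCLAF1-L cells and 614 in sh-Luci cells, and its relative MTCH2 differed by 0.02. AIFM3, of the apoptosis-inducing factor family, read 184 in sh-BCLAF1-L cells and 127 in sh-Luci cells. Among the partners of these genes, TIMM17B, TIMM50 and TIMM44 differed by -0.07, 0.03 and -0.04, and TOMM40, the outer membrane import channel, by -0.51 (299.9 in sh-BCLAF1-L cells and 429 in sh-Luci cells).

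The metabolic enzymes were PTGR1, ARG2 and ACOX2. PTGR1, which reduces prostaglandins and inactivates leukotriene B4, read 1694 in sh-BCLAF1-L cells and 1101 in sh-Luci cells, and its second probe set, at 876 in sh-BCLAF1-L cells and 598 in sh-Luci cells, differed by 0.55. ARG2, the mitochondrial arginase, read 802 in sh-BCLAF1-L cells and 552 in sh-Luci cells, but its other probe set read 621 in sh-BCLAF1-L cells and 695 in sh-Luci cells, a difference of -0.16. Other genes of arginine metabolism above the floor lay between -0.15 (SRM) and 0.18 (OAT). ACOX2, the peroxisomal oxidase of branched-chain acyl groups and bile acid intermediates, read 283 in sh-BCLAF1-L cells and 193 in sh-Luci cells. The related ACOX3 differed by 0.15 and the peroxisomal transporter ABCD3 by 0.24.

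ATG4C, a protease that processes ATG8 family proteins in autophagy, read 393 in sh-BCLAF1-L cells and 252 in sh-Luci cells. ATG4A, ATG4B and ATG4D differed by 0.04, 0.06 and -0.11. TMEM138 and CEP44 belong to cilia and centrioles, where TMEM138 read 1043 in sh-BCLAF1-L cells and 605 in sh-Luci cells, and CEP44 read 1219 in sh-BCLAF1-L cells and 724 in sh-Luci cells. The other CEP44 probe sets differed by 0.34 and 0.14, and both brighter CEP44 probe sets are of the _x_at class. LMO7, which links actin to adherens junctions, read 424 in sh-BCLAF1-L cells and 288 in sh-Luci cells, a difference of 0.56, and it differed by 0.46 on a second probe set above the floor. KBTBD3, of the kelch family, read 180 in sh-BCLAF1-L cells and 124 in sh-Luci cells. SYPL2, a relative of synaptophysin, read 181 in sh-BCLAF1-L cells and 121 in sh-Luci cells.

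The uncharacterised genes C6orf141 and C3orf62 differed by 0.81 and 0.58. C6orf141 read 578 in sh-BCLAF1-L cells and 330 in sh-Luci cells, and its second probe set, also above the floor, differed by 0.31. C3orf62 read 167 in sh-BCLAF1-L cells and 111 in sh-Luci cells, and probe sets that list C3orf62 together with other genes differed by 0.22 and -0.08. NBPF20 belongs to a family of near-identical copies, and its probe sets may read several of them. Its brightest single-symbol probe set read 699.6 in sh-BCLAF1-L cells and 384 in sh-Luci cells, and its second differed by 0.65, whereas 3 probe sets that the annotation assigns to several NBPF genes differed by 0.06, 0.01 and 0.09. TMEM191A, a pseudogene with close copies, read 171 in sh-BCLAF1-L cells and 117 in sh-Luci cells.

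The 5 long non-coding RNAs were dim. WWTR1-AS1 read 220 in sh-BCLAF1-L cells and 131 in sh-Luci cells, while its other probe set differed by -0.33. WWTR1, the transcriptional coactivator TAZ on the opposite strand, differed by -0.25, -0.08 and -0.32 on its probe sets. CNTFR-AS1 read 179 in sh-BCLAF1-L cells and 119.7 in sh-Luci cells, with -0.04 on its other probe set, and CNTFR, a subunit of the ciliary neurotrophic factor receptor, by 0.00. LOC105370746, LOC101929719 and LOC101928526 each had 1 probe set and read 173, 349 and 147 in sh-BCLAF1-L cells, against 116, 235 and 101 in sh-Luci cells.

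The other probe sets of a gene were not used for the choice but come from the same arrays, so they describe the probes and not the cultures. Of the 49 genes, 22 had 1 probe set. The other 27 genes had 59 further probe sets, of which 39 were higher and 20 were not, 7 reached 0.5 and 0 reached -0.5. All further probe sets were higher in 12 genes, some in 10 and none in 5, namely WWTR1-AS1, CNTFR-AS1, DTX3, ARG2 and EME1. The second-brightest probe set was higher in 18 of the 27 genes, or 66.7% (exact 95% interval 46.0% to 83.5%, counting error only), and 52.5% of 7699 genes above the floor with a second probe set shared that direction. It reached 0.5 in 5 of 27, against 1.38% of those genes.

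Its median difference over the 27 genes was 0.11, so that it was usually smaller than that of the brightest probe set, which had been chosen for its size. In 15 genes another probe set also passed the floor. The brightest such probe set was higher in 11 and reached 0.5 in NBPF20 and PTGR1. SETD4, MLLT3, ARG2 and EME1 were the 4 genes in which it was lower, by -0.02, -0.02, -0.16 and -0.10. Among all 4969 genes above the floor with such a probe set, it was higher in 51.3% and reached 0.5 in 33. The exact interval for the 15 genes, 44.9% to 92.2% around 73.3% (counting error only), includes 51.3%. With so few genes, all on the same arrays, the interval is wide and no conclusion is drawn from it. In 6 of the 27 genes at least 1 further probe set reached 0.5, namely NBPF20, PTGR1, SEMA3A, NT5E, ADAMTSL1 and ZNF449.

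**Figure D3:**
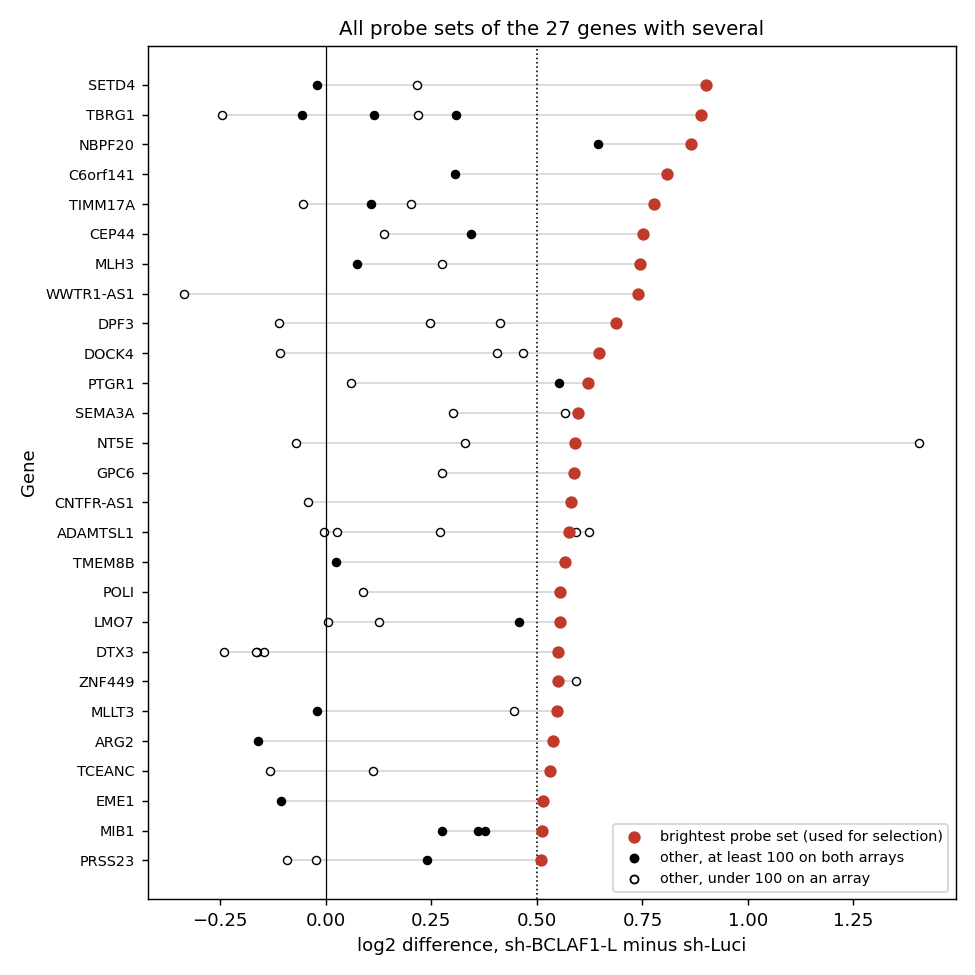
Log2 difference, sh-BCLAF1-L minus sh-Luci, of every single-symbol probe set of the 27 genes that have several, with the brightest probe set in red, others above the floor filled black and dimmer ones open. Red points lie right of the dotted line at 0.5 by selection, while other probe sets range from -0.33 for WWTR1-AS1 to 1.40 for NT5E, and those of MIB1, PTGR1, SEMA3A and LMO7 all lie right of 0.

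The class of the brightest probe set was similar to that of other genes. Names ending in _s_at or _x_at, which mark probes shared between transcripts, were carried by 15 of the 49 (30.6%), against 35.7% of all genes above the floor. Genes with 1 probe set made up 44.9% of the 49 and 33.5% of all, and long non-coding RNAs 10.2% and 5.23%.

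Over the 18 groups, 133 partner genes outside the 49 passed the floor, with a median difference of 0.01, and 71 of them were higher. Of all genes above the floor, 54.5% were higher. A partner above the floor at or past 0.5 would itself belong to the set, so the rule bounds these values from above. In the lower direction, which the rule does not bound, 1 partner, TOMM40, reached -0.5, as did 0.389% of all genes above the floor.

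**Figure D4:**
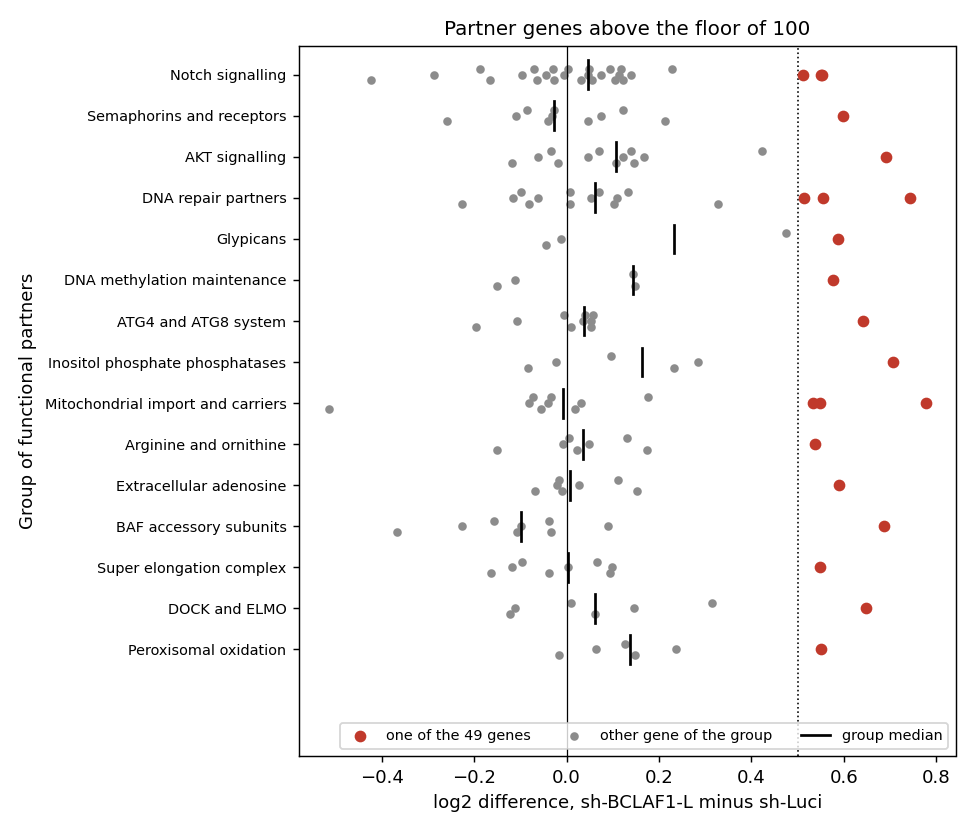
Log2 difference, sh-BCLAF1-L minus sh-Luci, of the genes above the floor in 15 groups of functional partners, with genes of the set in red, their partners in grey and the group median as a black bar. Grey points lie left of the dotted line at 0.5 by the selection rule, and group medians, which include the red points, lie between -0.10 for BAF accessory subunits and 0.23 for glypicans.

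Symbol stems shared by at least 4 genes above the floor, a gene of the set among them, gave 16 families, each holding a gene at or past 0.5 by construction. None of these families had a gene at or below -0.5, which only 0.389% of all genes above the floor reached. By direction alone, 54.5% of all genes above the floor were higher. Among the largest families, 205 of 319 ZNF genes (64.3%), 94 of 151 TMEM genes (62.3%) and 26 of 33 CEP genes (78.8%) were higher. In the ATG and TIMM families 8 of 17 and 3 of 14 were. Family medians were 0.09 for CEP, 0.05 for ZNF, 0.04 for TMEM, -0.01 for ATG and -0.05 for TIMM.

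Of the 49 genes, the 18 pathway lists hold NT5E (YAP and SRF targets) and no other. The set is 49 of the 11569 genes above the floor, so at that share short lists would hold few of them. Apart from NT5E, MMP1 and SPRY2 in the MAPK list were the only listed genes above the floor that were higher by at least 0.5. Both had been left out of the set by name. Of all genes above the floor, 0.493% were that much higher. List medians ran from -0.11 for BCL2 family genes to 0.13 for mesenchymal genes, with the interferon-stimulated genes apart at -0.48, of which 14 of 29 were at or below -0.5. In the YAP and SRF list TAGLN and CNN1 were lower, by -0.69 and -0.67. KRT18, a colon epithelial marker, differed by -0.54.

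Promoter windows of RefSeq, from 250 bases before to 50 after a start in GRCh38.p14, were found for 41 of the 49 genes (52 windows) and for 9412 genes above the floor (13638 windows). Median G and C content was 62.2% for the set and 64.7% for all. GC boxes (GGGCGG) occurred in 57.7% of the windows of the set and 65.0% of all, CCAAT boxes (CCAAT) in 38.5% and 34.9%, and the ETS motif (CCGGAAG) in 19.2% and 16.7%. The AP-1 motif was searched loosely as TGANTCA, with any base at N, and these letters occurred in 5.77% and 5.32%. The cyclic AMP response element (TGACGTCA) occurred in 3.85% and 2.79%, the E-box (CACGTG) in 7.69% and 9.30%, and the TATA box (TATAAA) in 1.92% and 6.37%. Both strands were read. Several windows can belong to 1 gene, and with 52 windows the rarer motifs rest on 1 to 4 windows of the set.

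A window with each of the rarer AP-1 and cyclic AMP motifs is shown as an example, from genes whose stretch overlaps no other annotated gene. That of C6orf141 lies at chr6:49550418-49550667 on the plus strand and that of KBTBD3 at chr11:106077348-106077597 on the minus strand. Capitals mark the match to the loose AP-1 letters in C6orf141, and in KBTBD3 the cyclic AMP response element, GC boxes and a CCAAT box.
C6orf141: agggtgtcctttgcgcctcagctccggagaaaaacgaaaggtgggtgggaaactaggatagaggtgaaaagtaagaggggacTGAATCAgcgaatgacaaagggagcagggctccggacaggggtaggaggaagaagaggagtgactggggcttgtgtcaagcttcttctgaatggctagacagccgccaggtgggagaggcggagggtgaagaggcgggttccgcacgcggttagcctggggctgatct
KBTBD3: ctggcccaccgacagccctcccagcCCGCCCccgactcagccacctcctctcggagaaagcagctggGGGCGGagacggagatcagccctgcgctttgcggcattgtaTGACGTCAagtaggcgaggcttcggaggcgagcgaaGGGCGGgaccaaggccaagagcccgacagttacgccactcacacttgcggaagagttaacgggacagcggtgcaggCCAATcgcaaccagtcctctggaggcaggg
The C6orf141 stretch holds 1 match to the loose AP-1 letters, TGAATCA with A at the open position, and no GC box. The KBTBD3 stretch holds 1 cyclic AMP response element, 3 GC boxes and 1 CCAAT box. A match of letters does not show that a factor binds there.

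The threshold cut through a continuous range of differences. Just inside it were TCEANC, KBTBD3, EME1, MIB1 and PRSS23, between 0.51 and 0.53. Just outside were LINC01537, NMNAT3, LOC145474, GAS5 and CNNM2, at 0.498, 0.497, 0.492, 0.492 and 0.491. The floor kept out 28 genes with a difference of at least 1, of which ITPRIPL1 (154 in sh-BCLAF1-L cells and 67.1 in sh-Luci cells) and PIWIL4 (147 in sh-BCLAF1-L cells and 42.5 in sh-Luci cells) passed 100 in sh-BCLAF1-L cells.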

How the data were processed

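Total RNA of 1 sh-BCLAF1-L and 1 sh-Luci culture was labelled and hybridised to 1 Affymetrix array each. The deposited values are linear intensities per probe set, made with RMA (background subtraction, normalization between arrays and probe summary) per the submitters' processing notes. The program version and the step back to linear units are not stated. RMA equalises arrays. Differences of dim probe sets were not narrow in the deposited values, as the set would hold 377 genes instead of 49 without the floor. The number of arrays limits the precision.

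Of 54675 probe sets, 41097 had 1 gene symbol, 1801 several and 11777 none. Symbols were updated by Entrez identifier in a RefSeq table of GRCh38.p14, which held 41043 of the 41097. Values were taken as log2(intensity + 1), differences as sh-BCLAF1-L minus sh-Luci, and a gene as its probe set with the highest mean log2 value. Every gene of the set was named, together with listed genes past 0.5 and genes next to the threshold; partner genes were named after their values were seen. The genes, lists and groups were chosen with earlier results of these data known. The result of 1 further list is not reported here. The selection was tested on simulated data. Alternatives were other probe set rules, a pseudocount of 32, centring, loess (span 0.3), floors of 50, 200 and none, and thresholds of 1.5-fold and 2-fold. Python 3.11.15, pandas 2.3.3, scipy 1.17.1, statsmodels 0.14.6 and matplotlib 3.10.9 were used.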

Additional observations from a re-analysis of the deposited data

How the results depend on the processing

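No paired analysis was possible because there was a single array in either group. The number of genes in the set was 29 with a pseudocount of 32, 107 with a floor of 50, 24 with a floor of 200, 377 with no filter on low values, 23 at 1.5-fold and 1 at 2-fold. These counts omit the genes left out by name, and with those genes they were 37, 115, 29, 385, 31 and 7. The number of genes at or past the threshold in the lower direction, with none left out, was 23, 72, 27, 207, 18 and 1. After subtraction of the median difference, 51 genes were that much lower and 54 that much higher, 46 of the latter in the set. With each gene as the median intensity of its probe sets, 37 genes not left out by name reached the threshold, 25 of them from the 49. Without _s_at and _x_at probe sets 46 did, of which 35 were from the 49. Under that setting 43 of the 49 kept a probe set. ACYP1, MLH3, AKT1, SH2D2A, FOXD1 and MTCH1 rest on _s_at or _x_at probe sets alone and could not be assessed.

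With each gene as the median intensity of its probe sets on each array, SETD4 reversed to -0.021, DTX3 to -0.24, MLLT3 to -0.021 and TCEANC to -0.13. The median of the probe sets' own differences was instead 0.22 for SETD4, -0.16 for DTX3, 0.45 for MLLT3 and 0.11 for TCEANC, and it was below 0 for 1 of the 49 genes. Without _s_at and _x_at probe sets SETD4 reversed to -0.021, TIMM17A to -0.054, TCEANC to -0.13 and EME1 to -0.10. The probe sets left for TIMM17A (65.1 in sh-BCLAF1-L cells and 67.6 in sh-Luci cells) and TCEANC (61.6 in sh-BCLAF1-L cells and 67.5 in sh-Luci cells) lay below the floor. With the pseudocount of 32, median subtraction and loess, 29, 46 and 47 of the 49 still reached 0.5. The lowest differences were then 0.41, 0.48 and 0.49. That all 49 stayed positive was fixed in advance, because a pseudocount cannot change a sign and the other shifts were small. On the forward strand alone, GC boxes were in 38.5% of the windows of the set and 46.4% of all, and CCAAT boxes in 21.2% and 19.3%. The cause of these shifts was not tested beyond the settings' own construction. The count of second probe sets above the floor was chosen after seeing the data. Agreement of second probe sets could not be computed with the median over probe sets, nor at 2-fold, where ACYP1 has 1 probe set.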
